A study of Mus musculus with 3 samples.

Results

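The 6 genes described here, Arg1, Arg2, Nos2, Ass1, Slc7a2 and Odc1, encode the enzymes and the carrier through which myeloid cells take up, split, oxidise and rebuild the amino acid arginine. They were chosen by name from the 32285 genes of the count matrices, and each of the 6 had 1 row. Arginases split arginine into ornithine and urea, while inducible nitric oxide synthase oxidises the same substrate to nitric oxide and citrulline. Citrulline can be returned to arginine, and ornithine can be turned into polyamines. Myeloid cells of tumors are known for both routes, since loss of extracellular arginine and exposure to nitric oxide each restrain T cells.

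Live CD45+ cells, the immune cells, were sorted from 4T1 mammary tumors and profiled by droplet single-cell RNA sequencing in 3 libraries, each made from the pooled tumors of 3 mice. All hosts were female BALB/c mice, 6 to 8 weeks old when 200000 cells of the luciferase-expressing mouse mammary carcinoma line 4T1-luc were placed in the fourth mammary fat pad, and all tumors were taken on day 14. The vehicle group carried p38a wildtype 4T1-luc tumors and received DPBS, and the p38i group carried the same tumors and received the p38 inhibitor LY2228820 (ralimetinib) by gavage at 30 mg/kg daily, both for 10 days from day 4. The p38KO group carried the clone p38a-KO-H9, 4T1-luc cells with p38a inactivated by CRISPR-Cas9, so that the group rests on 1 clone, and whether it received DPBS is not stated. With 1 library per group there is no replicate: no test was possible, every interval below covers counting error alone, and mouse, batch and condition cannot be told apart.

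A cell was kept from 1500 unique molecular identifiers (UMIs, the tags that mark captured transcripts) and 300 genes upwards, with mitochondrial counts up to 20%, which left 3820 in the vehicle, 4793 in the p38i and 3859 in the p38KO library. Gates were set on raw counts of marker genes other than the 6 members. The neutrophil gate (Csf3r and Cxcr2) held 1727, 2012 and 1458 cells, the monocyte gate (Ly6c2 and Fn1) 333, 562 and 283, and the macrophage gate (C1qa) 151, 172 and 507, in the order vehicle, p38i and p38KO, which is kept throughout. A T cell gate (Cd3e) of 458, 505 and 434 cells served as the background from free RNA, and 30.1% to 32.2% of the kept cells entered no gate. For Ass1 and Odc1, which were higher in T cells than in neutrophils, that gate is no measure of free RNA. Each cell type was checked with 6 or 7 markers, all of which were highest in their own gate, except that the monocyte marker Ly6i was highest in neutrophils in p38KO. The monocyte gate required Fn1 and a minimum sum of Ly6c2 and Fn1, so a cell could enter it without Ly6c2. Macrophage markers summed to 4241, 3246 and 4507 CPM (counts per 1000000 UMIs) in that gate, beside 5870, 5446 and 6317 CPM of monocyte markers. In the macrophage gate they summed to 18900, 21588 and 30539 CPM. Median depth per cell was 2527, 2262 and 2180 UMIs in neutrophils, 9044, 7829 and 8385 in monocytes and 17769, 16966 and 13698 in macrophages. The p38KO library stood apart in mitochondrial counts, with a median of 2.10% per kept cell against 0.671% and 0.968%. Mapk14, the gene of p38a, was at 33.7, 42.1 and 39.1 counts per 1000000 UMIs (CPM); because only tumor cells carried the deletion, this level in sorted immune cells checks no label. Between 4 and 5 cell barcodes were shared by any pair of libraries after filtering, and doublets were not removed.

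The genes divided among the cell types in much the same way in each library, apart from Nos2 and the macrophage shares. Arg1 UMIs lay mainly in monocytes and macrophages, with 47.6%, 46.5% and 34.0% in monocytes and 33.4%, 23.8% and 45.1% in macrophages, whereas neutrophils held 0.973%, 0.890% and 0.583%. Arg2 was mainly a neutrophil transcript, with 58.4%, 50.9% and 54.8% of its UMIs in that gate. Nos2 was shared by both compartments, and its split differed between libraries: neutrophils held 49.0% of its UMIs in vehicle, 38.2% in p38i and 22.8% in p38KO. Neutrophils held at most 3.03% of Ass1, 4.45% of Slc7a2 and 14.9% of Odc1. All these shares depend on the size of the gates as well as on the level in them. Neutrophils made up 45.2%, 42.0% and 37.8% of kept cells, and macrophages 3.95%, 3.59% and 13.1%. The neutrophil gate held 5299410 of 20795195 kept UMIs in vehicle and 3790910 of 24374173 in p38KO.

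**Figure D1:**
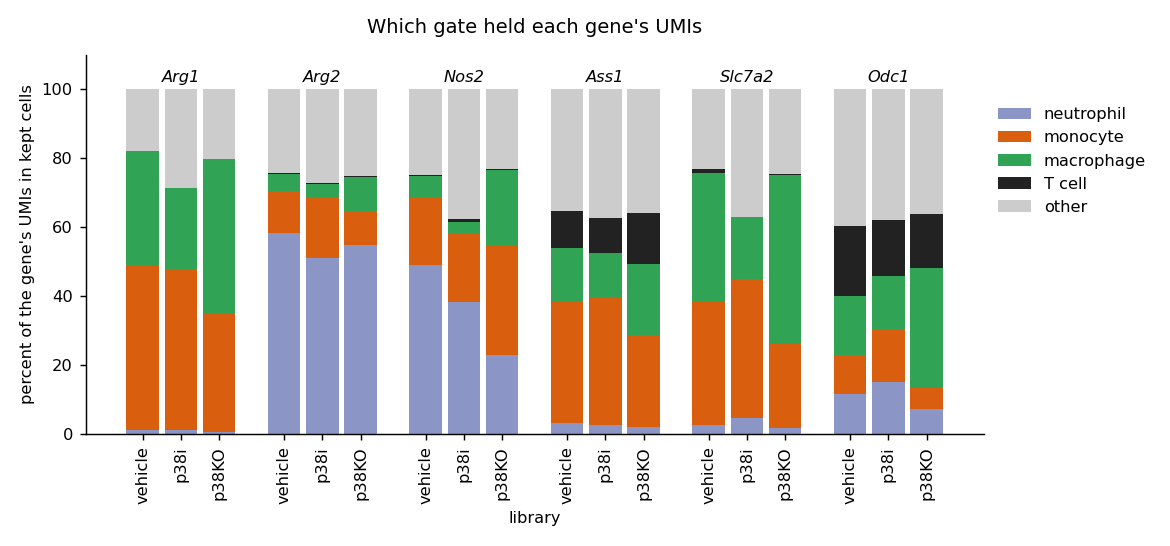
Each bar divides the UMIs of a gene in the kept cells of 1 library among the neutrophil, monocyte, macrophage and T cell gates and the cells in no gate (other), in percent. Neutrophils held most of the gated Arg2 in every library but under 1% of Arg1, and their part of Nos2 was 49.0% in vehicle and 22.8% in p38KO. The parts also depend on the size of each gate, which differed between libraries.

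Groups were compared by the log2 ratio of CPM to vehicle, and the comparisons of p38i and p38KO share that library. A difference was called when the log2 ratio was at least 0.5 either way, its interval left out 0 and both libraries together had at least 20 counts. In neutrophils the rule was passed by 9.72% of all genes in p38i, where 1 of 6 members passed (Slc7a2, higher), and by 12.8% in p38KO, where 1 of 5 members with enough counts passed (Nos2, lower). In monocytes it was passed by 7.06% of all genes in p38i, where 0 of 6 members passed, and by 11.3% in p38KO, where 2 of 6 passed (Nos2 and Slc7a2, higher). In macrophages it was passed by 6.79% of all genes in p38i, where 1 of 6 members passed (Nos2, lower), and by 11.7% in p38KO, where 3 of 6 passed (Arg1, Arg2 and Ass1, lower). The members passed most often in p38KO macrophages, where their median log2 ratio was -0.33 against 0.053 for all genes, and in p38KO monocytes, where it was 0.29 against 0.077.

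Arg1 (chromosome 10, 24915221 to 24927484, minus strand, GRCm38) encodes the cytosolic arginase, the classic marker of alternatively activated macrophages and of suppressive myeloid cells. In monocytes its level was 1619 CPM in vehicle (95% interval 1575 to 1664), 1357 in p38i (1324 to 1390) and 2065 in p38KO (2010 to 2122). The p38KO monocytes thus had the highest Arg1 level and the p38i monocytes the lowest, with no overlap. The log2 ratio of p38i to vehicle was -0.26 (-0.31 to -0.20) and that of p38KO 0.35 (0.30 to 0.41), both short of the size rule. Between the p38KO and p38i libraries directly the log2 ratio was 0.61 (0.55 to 0.66). The p38KO value was sensitive to the gate, at 0.057 with stricter gates and 0.14 with gates on other markers, and it passed the size rule, at 0.56, when the deepest 5% of cells were left out.

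Few cells carried most of this arginase. At least 1 Arg1 UMI was seen in 46.2%, 43.6% and 50.9% of monocytes, and the 10% of cells with the highest counts held 64.9%, 66.9% and 58.1% of the UMIs. Single monocytes reached 213, 256 and 205 UMIs of Arg1. After each cell was thinned to 1500 UMIs, the share of monocytes with Arg1 was 34.8% (29.7% to 40.2%), 32.9% (29.0% to 37.0%) and 39.9% (34.2% to 45.9%), intervals that overlap. In macrophages Arg1 was at 1208, 1104 and 848 CPM, so that the order of the libraries was not that of the monocytes. Its log2 ratio there was -0.13 in p38i and -0.51 in p38KO (-0.57 to -0.45), just past the size rule, and the call was lost with stricter gates (-0.49), with other markers (-0.48), at a limit of 10% mitochondrial counts (-0.45) and without the highest cell of each library (-0.46). The macrophage gate of p38KO also held 13.1% of kept cells against 3.95% in vehicle, and had a lower median depth and a higher median mitochondrial share, 3.89% against 2.89%. Its macrophage markers summed to 30539 CPM against 18900 CPM, and its mast cell or basophil markers to 121 CPM against 0.672 CPM. The part of these differences in the lower Arg1, Arg2 and Ass1 of this gate was not tested.

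Arg1 in neutrophils was close to the background. Its level was 19.8, 21.3 and 23.7 CPM against 5.02, 4.62 and 9.41 CPM in T cells. Single neutrophils held 22 of the 105 Arg1 UMIs of the vehicle gate and 40 of the 125 of the p38i gate. Thinned shares of Arg1-positive neutrophils were 1.85%, 1.59% and 3.16%, beside 0.655%, 1.39% and 2.76% of T cells, and the intervals of both cell types overlapped in all 3 libraries. The neutrophil log2 ratio for p38KO was 0.26 (-0.16 to 0.68) and reached 1.14 with gates on other markers. It passed the size rule as higher with those gates, with stricter gates (1.05), as a mean over cells and without the deepest 5% of cells. For p38i it passed as higher with stricter gates (0.61). By CPM, Arg1 ordered in every library as monocytes, macrophages, neutrophils and T cells, with no overlap of neighbouring intervals.

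**Figure D2:**
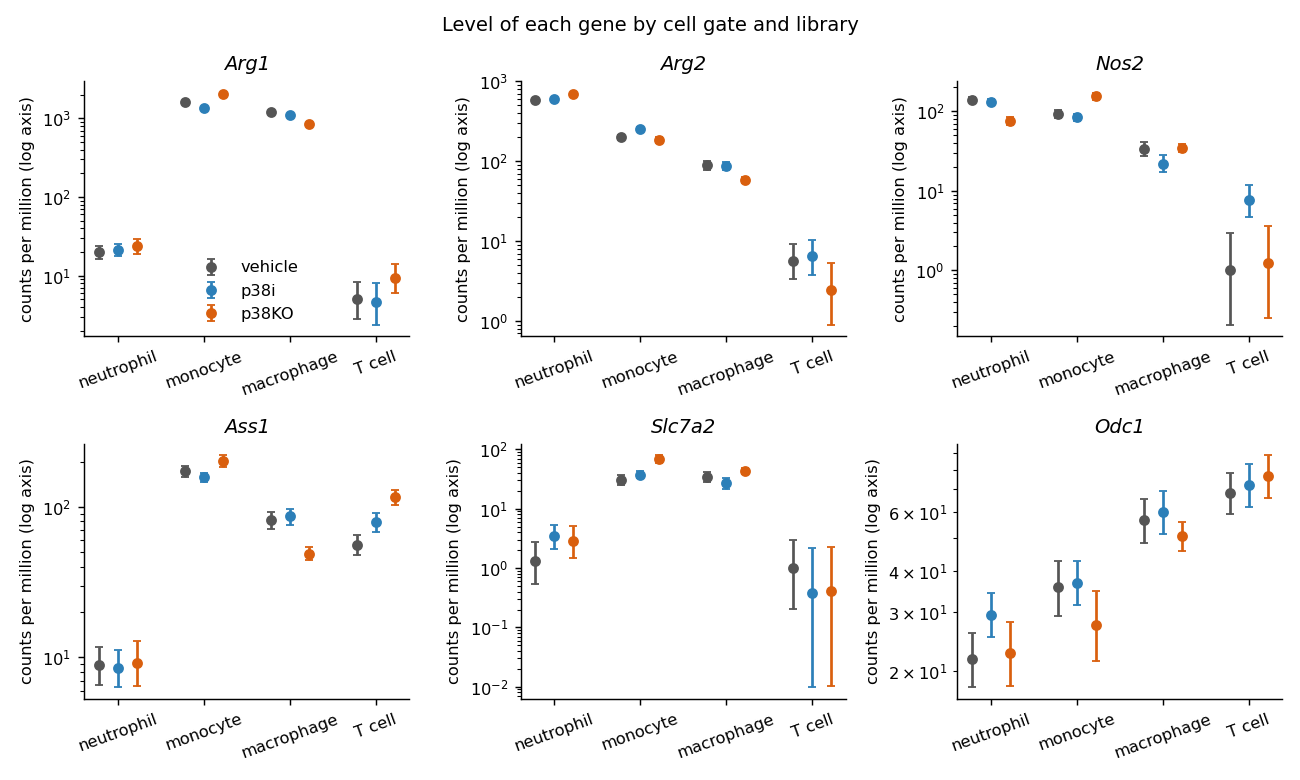
Points give the level of each gene in CPM (log axis, drawn separately for each gene) in the 4 gates and 3 libraries, and bars give exact Poisson 95% intervals of the gate sums. Arg1 is highest in monocytes and Arg2 in neutrophils in all 3 libraries, and Nos2 in p38KO is lower in neutrophils and higher in monocytes than in vehicle.

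Arg2 (chromosome 12, 79130777 to 79156301, plus strand) encodes the mitochondrial arginase. In neutrophils it stood at 580 CPM in vehicle (559 to 601), 605 in p38i (586 to 626) and 697 in p38KO (670 to 724). Unlike Arg1 in monocytes it was spread over the gate, for 75.8%, 74.8% and 74.6% of neutrophils had at least 1 Arg2 UMI. For p38i the log2 ratio was 0.063, with an interval that held 0, and for p38KO 0.27 (0.19 to 0.34), both under the size rule. All genes with enough counts had a median log2 ratio of 0.11 in p38KO neutrophils. With median-ratio scaling, on genes with at least 20 counts in each library, the Arg2 ratio for p38KO was 0.16. Monocytes held 200, 257 and 186 CPM, with the highest level in p38i at a log2 ratio of 0.36 (0.22 to 0.50). Macrophages held 89.3, 87.7 and 58.2 CPM, and only the last of these passed the rule, at -0.62 (-0.84 to -0.40). That call ended when cells were weighted equally instead of by their counts (-0.43). T cells held 5.69, 6.54 and 2.45 CPM. Neutrophils, monocytes, macrophages and T cells kept this order in all 3 libraries. Both arginases were thus lower in CPM in p38KO macrophages than in vehicle macrophages, with Arg1 at the edge of the rule. The shares of macrophages with a UMI were mixed. For Arg1 they were 60.9%, 72.1% and 68.6%, and thinned 43.0%, 45.3% and 36.7%. For Arg2 they were 47.7%, 48.3% and 36.5%, and thinned 8.61%, 12.2% and 10.5%. The thinned intervals of vehicle and p38KO overlapped for both genes. Arg1-positive macrophages held a median of 17, 12 and 6 Arg1 UMIs.

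Nos2 (chromosome 11, 78920787 to 78960254, plus strand) encodes inducible nitric oxide synthase, which myeloid cells switch on in response to microbial products and interferons. In neutrophils its level was 141 CPM in vehicle (131 to 152), 133 in p38i (124 to 143) and 76.0 in p38KO (67.4 to 85.3). The p38KO neutrophils lay below both other libraries, with no overlap. For p38KO the log2 ratio was -0.89 (-1.09 to -0.70), a level of 0.538 times that of vehicle, and for p38i it was -0.086 (-0.23 to 0.061). The share of neutrophils with at least 1 Nos2 UMI was 19.8%, 19.1% and 9.74%, and at 1500 UMIs per cell it was 13.1% (11.6% to 14.8%), 12.5% (11.1% to 14.1%) and 6.72% (5.49% to 8.13%). The T cell background at that depth was 0%, 0.594% and 0%, where 0 of 458 and 0 of 434 cells, taken at a floor of 3 cells, allow shares of cells with a UMI of up to 0.655% and 0.691%. The lower Nos2 of p38KO neutrophils passed the rule under all 9 alternatives, and the smallest difference was -0.83. The gate's own neutrophil markers summed to 194477, 215915 and 147269 CPM, lowest in p38KO. Summed macrophage markers in the neutrophil gate were at 229, 261 and 467 CPM and mast cell or basophil markers at 1.51, 47.2 and 83.6 CPM. The part of these marker differences in the lower Nos2 was not tested.

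Nos2 in monocytes went the other way. Its level was 93.0 CPM in vehicle (82.6 to 104), 84.8 in p38i (76.7 to 93.4) and 156 in p38KO (141 to 172), so the p38KO monocytes lay above both other libraries. For p38KO the log2 ratio was 0.75 (0.53 to 0.97), a level of 1.68 times that of vehicle, and for p38i it was -0.13 (-0.35 to 0.088). Nos2 was the highest in neutrophils in vehicle and p38i but in monocytes in p38KO, with no overlap between these gates in any library. The share of cells differed less than the level: 17.7%, 20.6% and 23.7% of monocytes had Nos2, and the thinned shares of 9.31% (6.41% to 13.0%), 8.72% (6.52% to 11.4%) and 13.4% (9.68% to 18.0%) overlapped. The 10% of cells with the highest counts held 88.8%, 82.6% and 83.9% of the UMIs. Without the highest cell of each library the log2 ratio for p38KO was 0.71, whereas with gates on other markers it was 0.45 and under the rule. Neutrophil markers summed to 2910, 3025 and 1670 CPM in the monocyte gate and tumor or epithelial markers to 5.67, 3.95 and 170 CPM, and their part in the result was not tested.

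In macrophages Nos2 was at 33.9 CPM in vehicle, 22.1 in p38i and 34.4 in p38KO. The p38i value passed the rule at -0.62 (-1.09 to -0.16), on 67 counts against 101, but turned to 0.22 with gates on other markers. The p38KO value was 0.020, and 83 of its 282 counts came from a single cell. It was 0.21 without the highest cell of each library, and as a mean over cells it passed the rule at -0.61. Cells in no gate held Nos2 at 59.8, 97.2 and 39.3 CPM. Over all kept cells Nos2 was at 73.4, 84.4 and 51.7 CPM, a log2 ratio of 0.20 in p38i and -0.51 in p38KO, so that the total was lower in p38KO although its monocytes were higher.

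**Figure D3:**
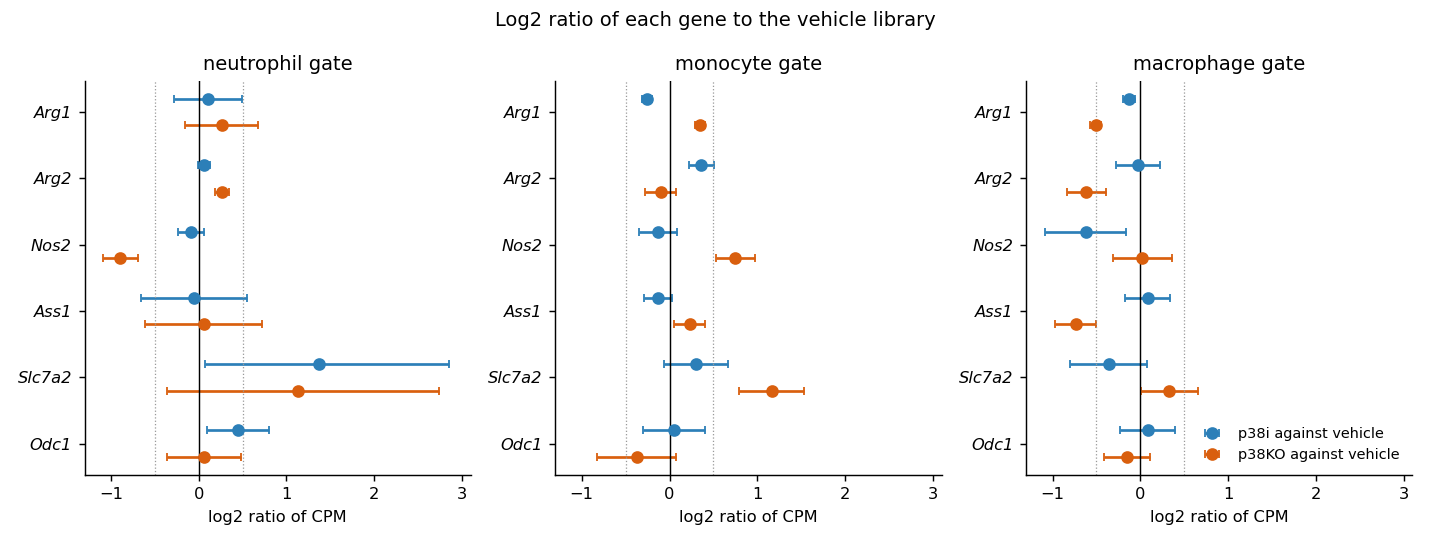
Points give the log2 ratio of CPM to the vehicle library for each gene in 3 gates, with exact 95% intervals for counting error, and dotted lines mark the size rule of 0.5 either way. For p38KO, Nos2 lies at -0.89 in neutrophils and 0.75 in monocytes, and Slc7a2 lies at 1.16 in monocytes.

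The neutrophil gate was split by UMIs of Cxcr2, a receptor of circulating mature neutrophils, and of Ccl3, a chemokine of activated neutrophils. Nos2 was lower in p38KO than in vehicle in all 4 subsets. In cells with Cxcr2 and no Ccl3, 57.1% of the vehicle gate and 55.9% of the p38KO gate, it went from 106 to 59.6 CPM at a log2 ratio of -0.83 (-1.15 to -0.52). In cells with both it went from 168 to 99.2 CPM (-0.76), in cells with Ccl3 and no Cxcr2 from 203 to 89.3 CPM (-1.18), and in cells with neither from 246 to 63.3 CPM (-1.96, on 14 counts against 87). The lower level was thus seen within each subset as well as in the sum. Arg2 in the same subsets lay between 559 and 611 CPM in vehicle and between 638 and 731 CPM in p38KO, a narrow range beside that of Nos2. Arg1 rested there on 4 to 53 counts a subset.

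The monocyte gate was split by UMIs of Inhba or Sdc1, then Ly6i or Ace, then Chil3, a marker of recently arrived monocytes. Nos2 was highest in the Inhba/Sdc1 subset, at 164, 143 and 311 CPM, and lowest in the Chil3 subset, at 14.8, 9.14 and 12.6 CPM. Its p38KO log2 ratio was 0.92 (0.67 to 1.17) in the Inhba/Sdc1 subset, where 25.2%, 29.8% and 44.1% of cells had Nos2, and 1.49 (0.58 to 2.45) in the Ly6i/Ace subset, on 32 counts against 16. It was -0.23 in the Chil3 subset and -0.33 in the remaining cells, with intervals that held 0. The higher Nos2 of p38KO was therefore not seen in every subset. The Inhba/Sdc1 subset made up 39.2% of the gate in p38KO and 45.3% in vehicle, at median depths of 8041 and 8992 UMIs. Because entry rests on UMIs seen, these shares depend on depth. The part of subset sizes in the Nos2 difference was not tested. Arg1 was also highest in the Inhba/Sdc1 subset, at 2328, 2156 and 3033 CPM. In the Ly6i/Ace subset it was at 701, 268 and 2089 CPM and in the Chil3 subset at 444, 339 and 1410 CPM, while in cells with none of these markers it was lower in both other groups, at 1860, 1104 and 1073 CPM. The Ly6i/Ace subset had 39, 55 and 33 cells, and in the Chil3 subset the share of cells with Arg1 was alike, at 22.7% in vehicle and 24.1% in p38KO, so few cells carried the larger sum.

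**Figure D4:**
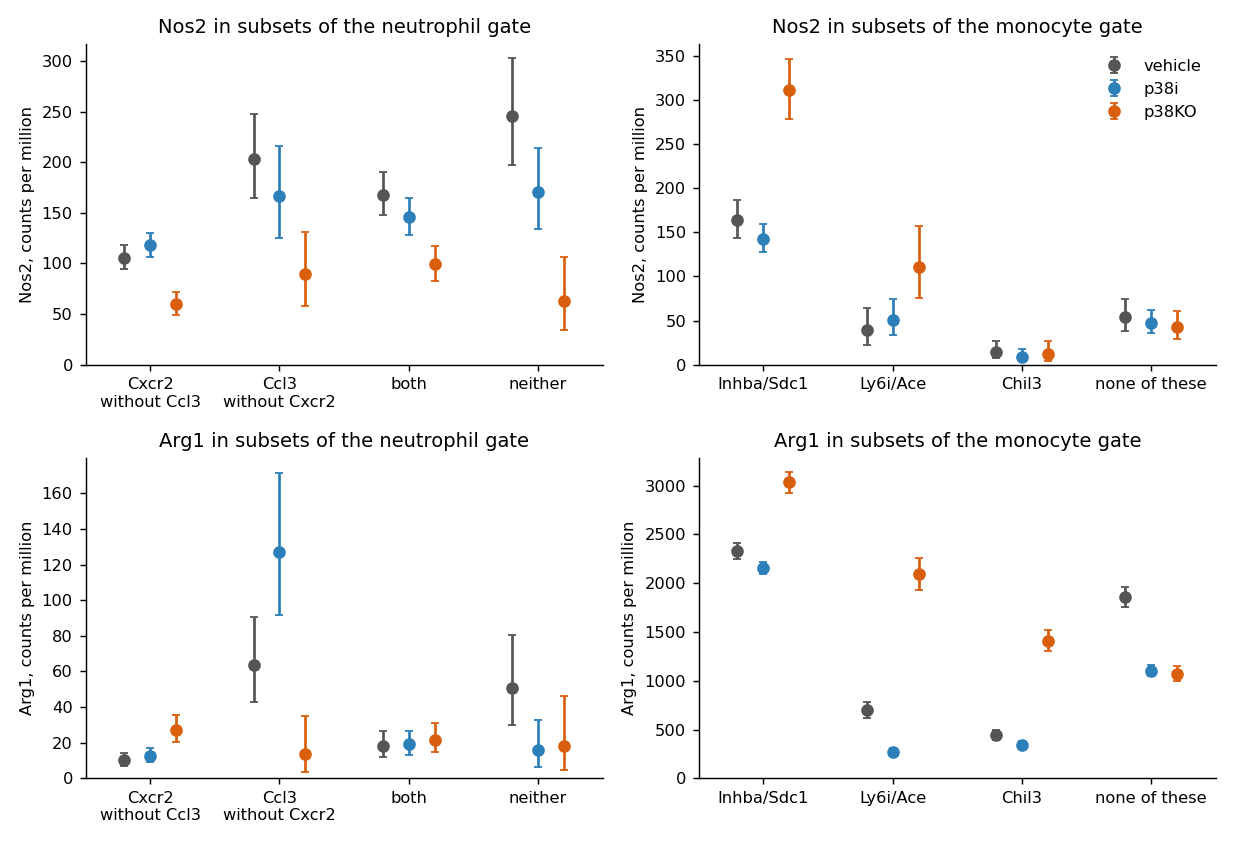
Levels of Nos2 and Arg1 in CPM are shown in 4 subsets of the neutrophil gate and 4 of the monocyte gate, with exact Poisson 95% intervals. Nos2 of p38KO is below vehicle in all 4 neutrophil subsets and above it in the Inhba/Sdc1 and Ly6i/Ace monocytes alone.

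Arg1 and Nos2 compete for arginine and are often used as opposite markers of macrophage activation, yet in these monocytes they were found in the same cells more often than the product of their shares. At own depth 48 of 333, 81 of 562 and 53 of 283 monocytes held UMIs of both, or 14.4% (10.8% to 18.7%), 14.4% (11.6% to 17.6%) and 18.7% (14.4% to 23.8%), where the products of the single shares were 8.19%, 8.998% and 12.05%. At 1500 UMIs per cell the shares were 6.91% (4.43% to 10.2%), 5.69% (3.93% to 7.94%) and 10.6% (7.27% to 14.8%), with products of 3.24%, 2.87% and 5.36%. The lower ends of these intervals lay above the product in all 3 libraries, and p38KO had the highest share, with an interval that overlapped vehicle and p38i. These thinned shares were 2.13, 1.98 and 1.98 times the product. Arg1 and Slc7a2 were at 1.44, 1.40 and 1.98 times theirs, and Arg1 and Arg2 at 1.08, 0.994 and 1.15. The product takes the gate as 1 population, but Arg1 and Nos2 were both highest in the Inhba/Sdc1 subset. The part of the subsets in the excess was not tested. At own depth Nos2 was mostly an addition to Arg1: of the Nos2-positive monocytes 81.4%, 69.8% and 79.1% also had Arg1, against 38.7%, 36.8% and 42.1% of those without Nos2. Monocytes with both genes were not the deeper cells: those with both had median totals of 8367, 7925 and 8151 UMIs and those with neither 9260, 7945 and 8223.

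Outside the monocytes cells with both transcripts were rarer. At own depth 12, 18 and 10 neutrophils held both, 0.695%, 0.895% and 0.686% of the gate, with products of 0.585%, 0.466% and 0.494%. Nos2-positive neutrophils were largely without Arg1, but so was the whole gate, of which 2.95%, 2.44% and 5.08% had Arg1. In macrophages both were seen in 11.3%, 7.56% and 6.11% of cells at own depth, but in 2.65%, 1.16% and 1.97% after thinning, with products of 1.996%, 1.32% and 0.941%. Among thinned T cells 0 of 458, 0 of 505 and 0 of 434 held UMIs of both, which at the same floor of 3 cells allows shares of up to 0.655%, 0.594% and 0.691%.

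**Figure D5:**
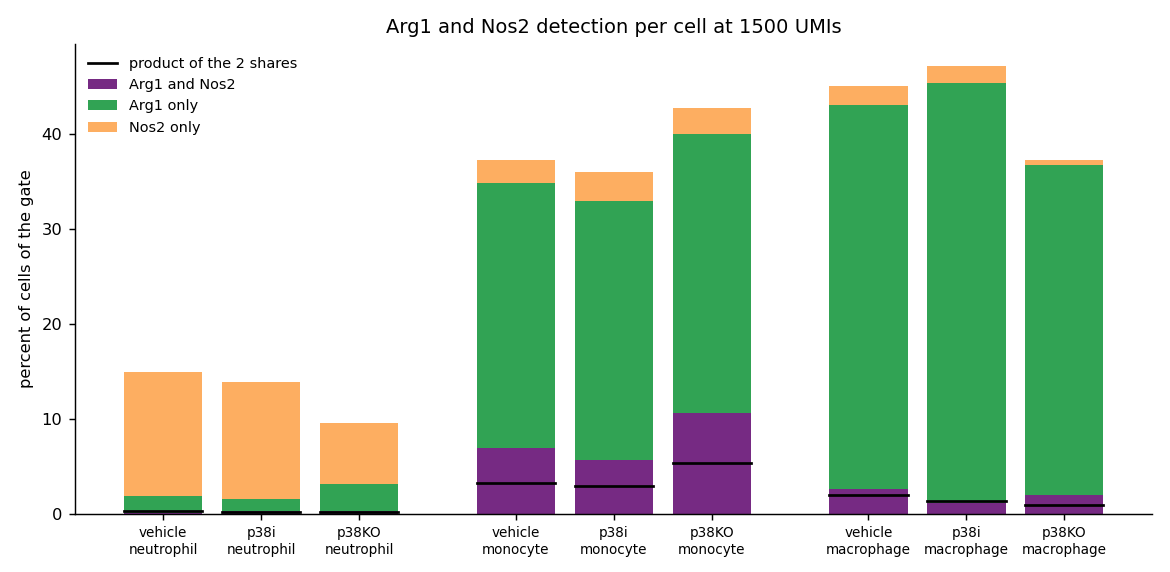
Bars stack the percent of cells with UMIs of Arg1 and Nos2, of Arg1 only and of Nos2 only after each cell was thinned to 1500 UMIs, and black lines give the product of the 2 single shares. Monocytes with both genes make up 6.91%, 5.69% and 10.6%, above the line in each library. Nos2-positive neutrophils, like the neutrophil gate as a whole, are nearly all without Arg1.

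Across single monocytes, on log counts scaled per cell, Arg1 and Nos2 had Pearson correlations of 0.40, 0.31 and 0.42 over 333, 562 and 283 cells of shared libraries. Among 5745 genes screened, those whose pattern was most like that of Arg1, by the lowest correlation over the 3 libraries, were Mif, a cytokine, Lgals3, a galectin, the glycolytic enzyme Pgk1, osteopontin (Spp1), the lipid droplet protein Hilpda and the glycolytic enzyme Gapdh, with lowest values from 0.46 to 0.49. Those most like Nos2 were the cytokine receptor Il7r, the mitophagy receptor Bnip3, the oxidoreductase Ero1l, Ndrg1, Lgals3 and the prolyl hydroxylase Egln3, from 0.34 to 0.36. Lgals3 stood in both sets. These are descriptions of cells that share a library and its depth.

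Ass1 (chromosome 2, 31470207 to 31520672, plus strand) encodes argininosuccinate synthase, the first step from citrulline back to arginine. In monocytes it was at 172, 157 and 202 CPM, where the log2 ratio was -0.13 (-0.29 to 0.030) for p38i and 0.23 (0.054 to 0.41) for p38KO. Macrophages held 81.6, 86.4 and 48.9 CPM, and p38KO passed the rule at -0.74 (-0.97 to -0.50) here and under the 8 alternatives that gave a value. In neutrophils it was at 8.87, 8.52 and 9.23 CPM. Like Odc1, Ass1 was higher in T cells than in neutrophils, at 55.9 CPM in vehicle (47.8 to 65.1), 78.8 in p38i (68.4 to 90.4) and 116 in p38KO (103 to 130). The T cell levels rank p38KO above p38i and p38i above vehicle with no overlap, and the log2 ratio of p38KO to vehicle was 1.05 (0.77 to 1.33). In the T cell gate macrophage markers summed to 49.9, 39.6 and 165 CPM and mast cell or basophil markers to 0.335, 0.385 and 53.6 CPM; their part in this result was not tested. At 1500 UMIs per cell 7.86%, 13.1% and 15.4% of T cells had Ass1. Monocytes were above every other gate in each library, while macrophages and T cells overlapped in p38i. Among monocyte subsets Ass1 was highest in Ly6i/Ace cells in vehicle and p38i, at 312 and 212 CPM, and in Inhba/Sdc1 cells in p38KO, at 297 CPM.

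Slc7a2 (chromosome 8, 40862396 to 40922308, plus strand) encodes the cationic amino acid transporter CAT2, the carrier that activated macrophages use to draw in arginine. In monocytes it was at 30.6 CPM in vehicle (24.8 to 37.3), 37.6 in p38i (32.3 to 43.5) and 68.5 in p38KO (58.7 to 79.4). The p38KO monocytes again lay above both other libraries, at a log2 ratio of 1.16 (0.80 to 1.54), and p38i was at 0.30 (-0.065 to 0.67). The p38KO difference passed the rule under all 9 alternatives, from 0.98 to 1.45. Cells with Slc7a2 made up 12.01%, 17.3% and 22.3% of monocytes, and the thinned shares were 3.60% (1.88% to 6.21%), 4.63% (3.04% to 6.71%) and 8.48% (5.51% to 12.4%). Like Nos2 it was highest in the Inhba/Sdc1 subset, at 47.5, 50.2 and 133 CPM, and its correlation with Arg1 across monocytes was 0.30, 0.28 and 0.40. Its p38KO log2 ratio was 1.48 (1.05 to 1.92) in that subset and 2.49 in Ly6i/Ace cells, on 16 counts against 4. It was 0.73 in Chil3 cells (7 counts against 6) and -0.94 in the remaining cells (11 against 20), with intervals that held 0. Tumor or epithelial markers summed to 170 CPM in p38KO monocytes against 5.67 in vehicle, and their part was not tested. Macrophages held 34.3, 26.7 and 42.9 CPM, with log2 ratios of -0.36 and 0.33 that did not pass. In neutrophils Slc7a2 rested on 7, 20 and 11 counts; the p38i ratio of 1.37 (0.068 to 2.85) passed the rule on these few counts and was lost with stricter gates, without the deepest 5% of cells and without the highest cell of each library, and the p38KO ratio had too few counts. T cells held 3, 1 and 1 counts.

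Odc1 (chromosome 12, 17544794 to 17551505, plus strand) encodes ornithine decarboxylase, which turns the ornithine made by arginase into putrescine, the first polyamine. It was the most evenly spread member over the gates. T cells held 68.0, 71.9 and 76.5 CPM, macrophages 56.4, 59.7 and 50.6 CPM, monocytes 35.6, 36.8 and 27.5 CPM and neutrophils 21.7, 29.5 and 22.7 CPM. T cells and macrophages overlapped in vehicle and p38i, and monocytes and neutrophils in p38i and p38KO. No difference of Odc1 passed the size rule in these gates, and the largest were 0.44 (0.094 to 0.80) in p38i neutrophils and -0.37 (-0.82 to 0.072) in p38KO monocytes. The first passed the rule with stricter gates (0.54), other markers (0.53) and as a mean over cells (0.59), and the second with stricter gates (-0.86). Over all kept cells its level was 47.8, 47.8 and 48.8 CPM. The monocyte gate, with the highest Arg1 level, was thus not the gate with the highest Odc1 level. Across single monocytes the correlation of Odc1 with Arg1 was 0.12, 0.11 and 0.17.

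Upstream sequences are shown for Ass1 and Odc1, the only members held by the RefSeq promoter table (2 of 6 matched). Each is the 250 bases before the RefSeq start on GRCm38.p6, on the plus strand, Ass1 at chr2:31470020-31470269 and Odc1 at chr12:17544623-17544872. The GENCODE starts given above, 31470207 for Ass1 and 17544794 for Odc1, lie within these windows, so the end of each window falls inside the GENCODE gene. Capitals mark matches on either strand to the GC box GGGCGG and the E-box CACGTG.
Ass1: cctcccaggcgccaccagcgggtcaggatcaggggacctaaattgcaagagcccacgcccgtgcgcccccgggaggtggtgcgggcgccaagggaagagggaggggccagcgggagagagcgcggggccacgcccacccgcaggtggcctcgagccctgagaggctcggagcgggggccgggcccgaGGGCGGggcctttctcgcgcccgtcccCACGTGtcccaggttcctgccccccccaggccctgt
Odc1: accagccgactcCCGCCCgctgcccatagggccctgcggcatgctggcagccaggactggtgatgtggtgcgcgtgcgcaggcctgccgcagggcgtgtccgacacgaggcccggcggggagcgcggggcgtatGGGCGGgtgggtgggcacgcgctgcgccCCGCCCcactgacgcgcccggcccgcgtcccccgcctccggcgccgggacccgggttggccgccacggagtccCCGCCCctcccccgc
Ass1 had 1 GC box and 1 E-box, the latter starting 36 bases before the RefSeq start. Odc1 had 4 GC boxes and no E-box, and neither gene held the TATA box TATAAA. Both Ass1 matches and the last Odc1 GC box lie at or after the GENCODE start. Of 32851 promoters cut to the same length, 32.7% held the GC box, 6.02% the E-box and 12.4% the TATA box. The motifs do not overlap each other here, and a match describes letters alone.

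The rest of the arginine pathway was read from 67 further genes in 5 lists, and those named below beyond the largest differences in each gate and direction were chosen after their values were seen. In neutrophils 2 of 43 genes with enough counts were higher and 1 lower in p38i, and 6 higher and 0 lower in p38KO; in monocytes 6 and 2 of 51, and 7 and 2 of 52; in macrophages 2 and 4 of 55, and 3 and 2 of 55. Median log2 ratios of the list for p38i and p38KO were 0.045 and 0.18 in neutrophils against 0.080 and 0.11 for all genes, 0.032 and 0.019 in monocytes against 0.037 and 0.077, and 0.016 and -0.018 in macrophages against -0.013 and 0.053. By these medians the list lay near the other genes in all 6 comparisons. Of all genes 9.72% and 12.8% passed the rule in neutrophils, 7.06% and 11.3% in monocytes and 6.79% and 11.7% in macrophages. The list passed more often than all genes in both monocyte comparisons, in p38KO neutrophils and in p38i macrophages, and less often in the rest. Each of these shares of the list rests on few genes.

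Among the 8 further arginine carriers, Slc7a7 was higher in p38KO neutrophils (6.59 against 3.40 CPM) and Slc7a1 lower in p38i macrophages (14.5 against 22.5 CPM), and no other call was made in the 3 myeloid gates. Only 4 of these carriers had enough counts for a call in neutrophils, 5 in monocytes and 6 in macrophages. Of 14 genes of the citrulline cycle and of arginine use, Gatm, which takes arginine into creatine synthesis, was higher in p38KO in neutrophils (55.9 against 24.7 CPM), monocytes (456 against 302 CPM) and macrophages (1490 against 920 CPM, log2 ratio 0.70). Macrophage markers in the neutrophil gate summed to 467 CPM in p38KO against 229 CPM in vehicle. Their part in the neutrophil Gatm level, and in the other p38KO neutrophil calls of the lists, was not tested. Gamt, the next enzyme to creatine, was higher in monocytes of p38i and p38KO, at 13.9 and 18.1 CPM against 8.51 CPM in vehicle. Asl, which completes the return to arginine after Ass1, was higher in p38i macrophages (53.1 against 34.9 CPM, log2 ratio 0.60), and Oat, which draws ornithine to proline and glutamate, was lower in p38KO monocytes (33.8 against 49.2 CPM, -0.54). Azin2, an antizyme inhibitor, was lower in p38i macrophages on 5 counts against 15.

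Of 15 genes of nitric oxide synthesis and its control, Qdpr and Pts, which recycle or make tetrahydrobiopterin, the cofactor of Nos2, were higher in monocytes of both groups. Qdpr was at 11.4 CPM in p38i and 12.2 CPM in p38KO against 4.41 CPM in vehicle, and Pts at 35.1 and 35.4 CPM against 24.6 CPM, all past the rule. Both comparisons share the vehicle library, and Qdpr rested there on 14 counts. Nostrin was higher in p38i monocytes (11.2 against 5.99 CPM). Ddah2, which breaks down an inhibitor of nitric oxide synthases, had 25 counts in p38KO monocytes against 3 in vehicle, a ratio of 10.4 (3.17 to 53.8). Tumor or epithelial markers summed to 170 CPM in p38KO monocytes against 5.67 in vehicle, and their part in the Ddah2 counts was not tested.

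Of 14 polyamine genes, Dohh and Dhps, which modify the translation factor Eif5a with spermidine, were higher in p38i neutrophils (log2 ratios 1.23 and 0.63), and Dohh also in p38KO neutrophils (1.43, on 29 counts against 15). Amd1 was higher in p38KO neutrophils (17.7 against 11.7 CPM). Srm, spermidine synthase, was higher in monocytes of p38i and p38KO, at 26.4 and 24.4 CPM against 16.4 CPM, and Mtap, which salvages the by-product of polyamine synthesis, was at 21.2 CPM in p38KO monocytes against 5.99 CPM in vehicle (1.83). The part of the tumor or epithelial markers of p38KO monocytes in the Mtap level was not tested. No polyamine gene was called in macrophages, where 13 of the 14 had enough counts.

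Of 16 transcription factors, receptors and cytokines that act upstream of Arg1 or Nos2, Tnf was higher in p38KO neutrophils (58.8 against 20.8 CPM, 1.503) and in macrophages of p38i (14.8 CPM) and p38KO (15.4 CPM) against 4.70 CPM in vehicle, where it rested on 14 counts. Il1b was lower in p38i monocytes (1161 against 1796 CPM, -0.63) and p38i macrophages (279 against 576 CPM, -1.04). In p38KO macrophages Cebpb, a factor known to bind the Arg1 enhancer, was at 516 against 797 CPM (-0.63) and Hif1a at 113 against 161 CPM (-0.50). Ifngr2 was higher there (128 against 90.3 CPM). Tlr4 was lower in p38KO monocytes (58.6 against 87.3 CPM, -0.57), and Irf8 was higher in p38KO neutrophils (58.8 against 36.0 CPM). Whether any of these genes had a part in the levels of Arg1, Arg2 or Nos2 was not tested.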

How the data were processed

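The authors aligned and counted the reads with Cell Ranger (6.0.0 in the file headers), and their processing notes name the build mm10, R 4.2.1 and Seurat 5. The deposited values are raw UMI counts per gene and barcode, with no normalization, with 21675352 UMIs in 4588 barcodes for vehicle, 25996832 in 6343 for p38i and 25997636 in 5212 for p38KO. The chemistry is v2 in the labels and another version in the study's methods. The annotation used for counting is not given in the sources used here; positions are from GENCODE M21 on GRCm38, counted from base 1.

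From these counts, cells were filtered and gated on raw counts as described, and counts were summed per gate and library and expressed as CPM of the gate sum. Levels carry exact Poisson, shares exact Clopper-Pearson and log2 ratios exact conditional binomial 95% intervals. These intervals cover counting error only, and because the UMIs of a gene are clumped in few cells they are narrower than the spread over cells. Thinning to 1500 UMIs used random seed 1. Since each group is 1 library, no difference between groups was tested. Where 0 cells were seen, the limit given is 3 cells of the total. All 6 members, the 5 pathway lists and the rule for further names (per gate and comparison up to 2 pathway genes in each direction with the largest log2 ratio past the size rule, and the 6 genes most correlated with Arg1 and with Nos2 in monocytes, seen in at least 10% of them) were chosen with earlier results of these data known. The values of 2 genes of the pathway lists, counted in the list totals, are not reported here. Alternatives were no cell filter, stricter gates, gates on other markers, median-ratio scaling, the mean of the cells' CPM, subtraction of the T cell level, a lower mitochondrial limit, leaving out the deepest 5% of cells and, chosen after seeing the data, leaving out the highest cell of each library. The size rule itself was also changed, to a log2 limit of 1 or to at least 50 counts. Tools were Python 3.11.15, numpy 2.4.6, scipy 1.17.1, pandas 2.3.3 and matplotlib 3.10.9.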

Additional observations from a re-analysis of the deposited data

Results flagged for a closer look

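Nos2 passed the size rule in opposite directions in 2 gates under the same contrast: the log2 ratio of p38KO to vehicle was -0.89 in neutrophils and 0.75 in monocytes. The difference between the gates was not tested, because each group is 1 library, and the monocyte value was 0.45 with gates on other markers.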

How the results depend on the processing

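Of the results described, the lower Nos2 in p38KO neutrophils (log2 ratio at most -0.83), the higher Slc7a2 in p38KO monocytes (0.98 to 1.45) and the lower Ass1 in p38KO macrophages (-1.07 to -0.72) passed the size rule of 0.5 under every alternative that gave a value. When the rule itself was changed, all of them passed at 50 counts, but only Slc7a2 passed at a log2 limit of 1. Where others moved, the cause was not tested. Gates on other markers gave for Nos2 0.45 (p38KO monocytes), -0.36 (p38i monocytes) and 0.22 (p38i macrophages, reversed), for Arg1 -0.33 (p38i) and 0.14 (p38KO) in monocytes, and for Ass1 -1.07 in p38KO macrophages; stricter gates gave -0.54 for Nos2 in p38i and 0.057 for Arg1 in p38KO monocytes. Arg1 of p38KO was 0.29 in monocytes with median-ratio scaling and 0.56 without the deepest 5% of cells, and in macrophages -0.78 as a mean over cells and -0.45 at 10% mitochondrial counts. Subtracting the T cell level gave 3.26 for Slc7a2 in p38i neutrophils and -1.19 for Nos2 in p38i macrophages (where 15 of the 20 T cell counts came from 1 cell). For Ass1 it gave -0.57 in p38i monocytes (against -0.13), -0.43 in p38KO monocytes (against 0.23) and -1.76 in p38i macrophages (against 0.083). It gave no value for Odc1, for Ass1 in neutrophils and for Ass1 in p38KO macrophages, where T cells held as much or more. Ass1 was seen in 22.9%, 24.2% and 29.7% of T cells, with up to 9, 10 and 14 UMIs in a cell. These Ass1 shifts, and the calls they gave, are therefore not a correction for free RNA.

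The number of members past the rule moved with small counts. In p38i neutrophils (1) it was 2 with stricter gates, other markers or cell means and 0 without the deepest cells, without the highest cell of each library (chosen after seeing the data) or at 50 counts; in p38KO neutrophils (1) it was 2 without the cell filter, with stricter gates, other markers, cell means or without the deepest cells and 0 at a log2 limit of 1. In p38i monocytes (0) it was 1 with stricter gates, T cell subtraction or without the highest cell. In p38KO monocytes (2) it was 1 with other markers or a limit of 1. There Odc1 passed beside Nos2 and Slc7a2 with stricter gates, and Arg1 beside them without the deepest cells. In p38i macrophages (1) it was 0 with other markers or a limit of 1 and 2 with T cell subtraction. In p38KO macrophages (3) it was 0 at a limit of 1. There Arg1 was lost with stricter gates, other markers, 10% mitochondrial counts and without the highest cell. Arg2 was lost with cell means, and Ass1 had no value with T cell subtraction. Slc7a2 passed there with other markers and without the highest cell, and Nos2 with cell means.

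The share of monocytes with Arg1 and Nos2 fell to 3.50%, 3.56% and 5.56% with other markers and to 2.10%, 2.14% and 4.24% at 2 UMIs of each, and was 14.4%, 14.4% and 18.7% at own depth and, at 4000 UMIs, 9.77% in p38i and 15.2% in p38KO. It stayed above the product of the single shares under all 8 alternatives in each library. No paired analysis was possible because each group is 1 library with no replicate number. Slc7a2 rested on 7 to 20 counts a library in neutrophils and 1 to 3 in T cells.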
